A study of Mus musculus with 2 samples.

Results

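Of the 44713 genes in the count table, 98 make and serve the mitochondrial genome and are described here: the 13 protein genes that the mitochondrial genome itself encodes, 76 nuclear genes for proteins of the mitochondrial ribosome, and 9 nuclear genes that copy and transcribe the mitochondrial genome or keep its messenger RNAs stable. They were picked by name, in a choice made with earlier results of these data known. Taken were the mitochondrial symbols ATP6, ATP8, COX1 to COX3, CYTB, ND1 to ND6 and ND4L, the protein-coding genes whose names begin with Mrpl or Mrps and a digit, and Tfam, Polrmt, Tfb1m, Tfb2m, Lrpprc, Slirp, Twnk, Polg and Mterf1a. Twnk was found under its older symbol Peo1. The db/db group was 1 library of pancreatic islets from mice labelled Lepr-/- on the C57BL/6 background, which lack a working leptin receptor and become obese and diabetic. The db/m group was 1 library of islets from mice of that background labelled as wild type. The genotype is shared by all tissues of a db/db mouse, and the sources used here give no age, sex or number of animals for a library. Each group is a single library, so differences have no replicate check and carry no p-value. Each ratio of db/db over db/m carries a 95% interval for counting error alone.

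Mitochondria keep a small circular genome that is read from both strands as long precursor RNAs. Transfer RNA genes lie between most of its protein genes, and cutting them out frees the ribosomal and messenger RNAs. Its protein genes encode core subunits of respiratory complexes I, III, IV and V, which are translated inside the organelle on a ribosome of its own. The mitochondrial genome encodes the ribosomal RNA of that ribosome, whereas the ribosomal proteins, the RNA polymerase and the other respiratory subunits come from nuclear genes and are imported. In beta cells this machinery ties glucose use to insulin release, and in acinar cells of the exocrine pancreas it supplies energy for enzyme synthesis.

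The db/db library held 18233695 counts and the db/m library 16271129. Counts were scaled by edgeR (trimmed mean of M values, TMM) and given as CPM, counts brought to a common library size, so that 1 count stood for 0.0516 CPM in db/db islets and 0.0653 CPM in db/m islets. Higher or lower is used as a call for a gene whose ratio was at least 2-fold, whose mean was at least 1 CPM and whose interval excluded 1. Of 10300 genes that reached 1 CPM, 7.87% were called, 3.83% as higher and 4.04% as lower. Although the labels give islets, 36 genes of acinar cells, which make digestive enzymes, took 75.3% of all counts in db/db islets and 76.9% in db/m islets. Summed beta cell markers took 0.162% in db/db islets and 0.142% in db/m islets. Of these, Ins1, Mafa and Slc2a2 were lower, while Ins2, which holds most of the sum, was at 1.05 (1.03 to 1.07) and Iapp at 1.69 (1.61 to 1.76). Of the other islet hormone genes, Gcg (ratio 3.99), Sst (8.79) and Ppy (6.44) were higher, and 4 adipocyte markers summed to 7 counts in db/db islets and 9 in db/m islets, with Adipoq and Ucp1 at 0 in both. Of 15 immediate early genes with at least 1 CPM, which respond to stimuli and to tissue handling, 14 were called lower in db/db islets and none higher, with summed levels over all 18 listed of 130 CPM in db/db islets and 909 CPM in db/m islets.

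Messenger RNA from the mitochondrial genome was scarcer in db/db islets, while the summed counts of the nuclear genes that serve this genome differed far less between the libraries. The 13 mitochondrially encoded genes summed to 23032 counts in db/db islets and 47699 in db/m islets, a ratio of 0.382 (0.376 to 0.388). The 76 genes for mitochondrial ribosomal proteins summed to 8489 counts in db/db islets and 6342 in db/m islets, a ratio of 1.06 (1.02 to 1.09). The 9 genes for copying, transcription and mRNA stability summed to 1423 counts in db/db islets and 1241 in db/m islets, a ratio of 0.906 (0.839 to 0.979). In all, 92 of the 98 genes reached 1 CPM and 12 were called (all genes: 7.87%). These were 11 mitochondrially encoded genes, all lower (all genes: 4.04%), and the ribosomal protein gene Mrpl45, which was higher (all genes: 3.83%). In a bulk library, fewer cells rich in mitochondria and less mitochondrial RNA per cell cannot be told apart. The immediate early and endocrine marker genes given above also differed between the libraries, and their part in the mitochondrial result was not tested.

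**Figure D1:**
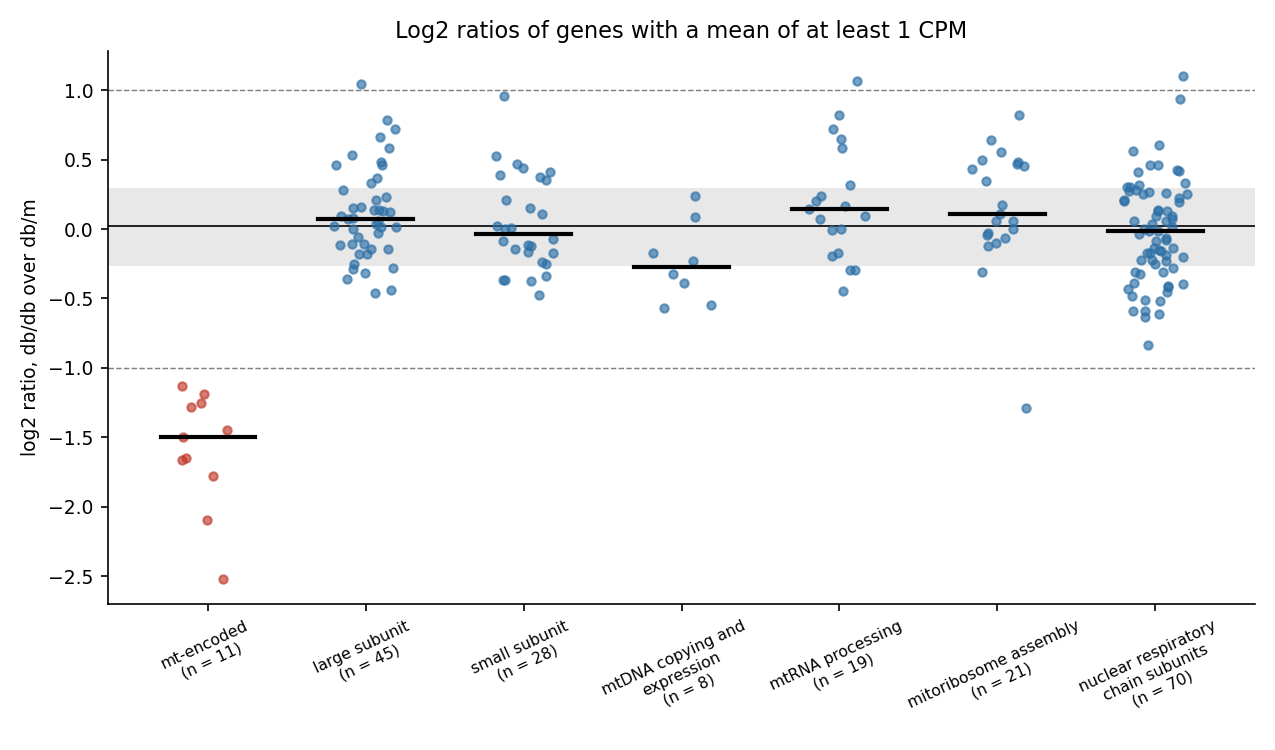
Log2 ratio of db/db over db/m (vertical axis) for genes whose mean reached 1 CPM, by gene group, with each point a gene and each thick bar a group median. The grey band spans the middle of all 10300 genes (lower to upper quartile) around their median of 0.02, and the dashed lines mark 2-fold. The 11 mitochondrially encoded genes lie between -2.52 and -1.13, below every gene of the large and small subunit groups. The lowest ribosome assembly gene, at -1.29, lies within that range.

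Among the subunits of complex I, which takes electrons from NADH, ND1 had 1543 counts in db/db islets against 2772 in db/m islets, a ratio of 0.440 (0.413 to 0.468). ND2 had 632 counts in db/db islets against 2132 in db/m islets, a ratio of 0.234 (0.214 to 0.256). The intervals of these neighbours on the genome do not overlap. Set against ND1 within each library, ND2 stood at 0.410 in db/db islets and 0.769 in db/m islets, so the genome's transcripts did not share 1 ratio. ND4 had 1657 counts in db/db islets against 4101 in db/m islets (ratio 0.319, 0.301 to 0.338). ND5 had 1453 counts in db/db islets against 3248 in db/m islets (ratio 0.354, 0.332 to 0.376). Both lay between ND2 and ND1. ND6, the protein gene on the opposite strand to the others, had 367 counts in db/db islets against 692 in db/m islets, a ratio of 0.419 (0.368 to 0.476). Relative to ND5, with which it overlaps end to end, ND6 was at 0.253 in db/db islets and 0.213 in db/m islets, a ratio of 1.19 (1.03 to 1.37). Because the sources used here do not say whether counting used strand, reads of ND6 and of RNA antisense to it cannot be told apart. ND3 and ND4L were sparsely counted, with 2 counts in db/db islets against 10 in db/m islets for ND3 and 17 against 77 for ND4L. Their ratios of 0.158 (0.0168 to 0.742) and 0.174 (0.0967 to 0.298) rest on few reads, and ND3 fell short of 1 CPM.

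CYTB, the mitochondrially encoded subunit of complex III, had 2131 counts in db/db islets against 5338 in db/m islets, a ratio of 0.316 (0.300 to 0.332). COX1, the catalytic core of complex IV (cytochrome c oxidase), had 15004 counts in db/db islets against 28842 in db/m islets, a ratio of 0.411 (0.403 to 0.419). COX1 alone made up 65.1% of the counts of the 13 genes in db/db islets and 60.5% in db/m islets, so the summed ratio leans on it, and without COX1 that ratio was 0.336 (0.328 to 0.345). The other complex IV genes had far fewer counts. COX2 had 39 counts in db/db islets against 84 in db/m islets (ratio 0.367, 0.244 to 0.543). COX3 had 81 counts in db/db islets against 220 in db/m islets (ratio 0.291, 0.223 to 0.377). Both were lower in db/db islets, with intervals wide enough to hold the ratio of the 13 genes together or nearly so. Of the ATP synthase (complex V) genes, ATP6 had 101 counts in db/db islets against 175 in db/m islets (ratio 0.456, 0.353 to 0.586). ATP8 had 5 counts in db/db islets against 8 in db/m islets (ratio 0.494, 0.127 to 1.71), too few for a difference to be detectable at this depth. All 13 ratios were below 1 and 12 of the 13 intervals excluded 1, which among all compared genes held for 18.2%. The median log2 ratio of the 11 genes with at least 1 CPM was -1.50, against 0.02 over all compared genes. At 4-fold with an interval excluding 1, 2 of the 11 were lower (all genes: 0.738%), ND2 and ND4L, and 0 higher (0.757%). When libraries were scaled by total counts, 10 of the 11 calls were made, and ATP6 was at 0.515.

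**Figure D2:**
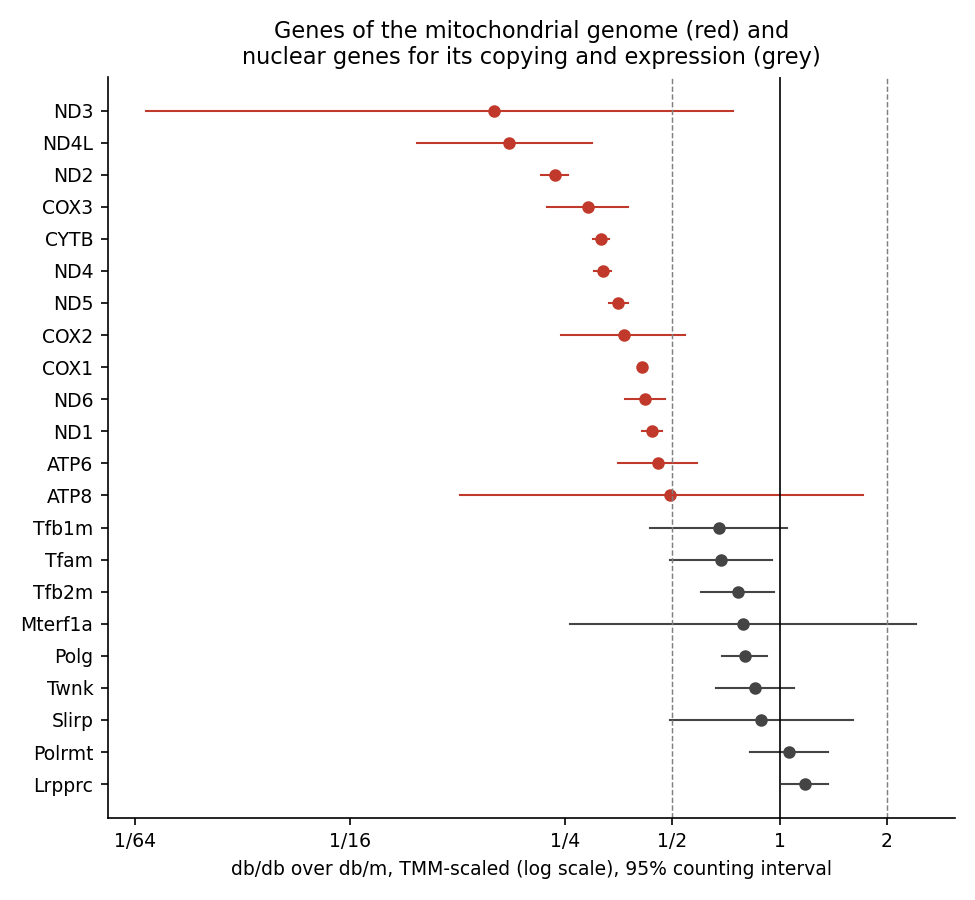
Ratio of db/db over db/m on a log axis with 95% counting intervals, for the 13 genes of the mitochondrial genome (red) and the 9 nuclear genes for its copying, transcription and mRNA stability (grey). The red points lie between 0.158 and 0.494, and the grey points between 0.675 and 1.18.

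Counts per kilobase were uneven along the mitochondrial genome, and in the same places in both libraries. The 6 protein genes that follow each other from COX2 to ND4L (mitochondrial genome, positions 7013 to 10173 in GRCm38) had 5.75 to 148 counts per kb in db/db islets and 28.7 to 281 counts per kb in db/m islets. The other 7 protein genes, on either side of that stretch, had 609 to 9711 counts per kb in db/db islets and 1333 to 18668 counts per kb in db/m islets. These ranges do not overlap in either library, although all these genes except ND6 are cut from the same strand's precursor. The 6 genes together gave 1.06% of the counts of the 13 genes in db/db islets and 1.20% in db/m islets. Their summed ratio of 0.337 (0.289 to 0.392), over genes grouped after their values were seen, was close to that of the other 7 genes (0.382, 0.376 to 0.388).

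The nuclear genome of the mouse carries copies of mitochondrial sequence, and RefSeq annotates a pair of pseudogenes on chromosome 1 that mirror part of the sparsely counted stretch. Gm10925 (chromosome 1, 24613971 to 24614651) has mt-Atp6 among its synonyms and the same length as ATP6, 681 bases. Gm10222 (chromosome 1, 24612404 to 24612700) has the length of ND4L, 297 bases. The ends of these pseudogenes lie 1951 bases apart, and the starts of ATP6 and ND4L 1950 bases apart. Gm10222 had 24 counts in db/db islets and 42 in db/m islets, of the same order as the 17 and 77 counts of ND4L, and a ratio of 0.452 (0.262 to 0.763). The sources used here do not say how reads that match several places were counted, so the levels of the 6 genes are uncertain, and the part of such copies in their low counts was not tested.

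**Figure D3:**
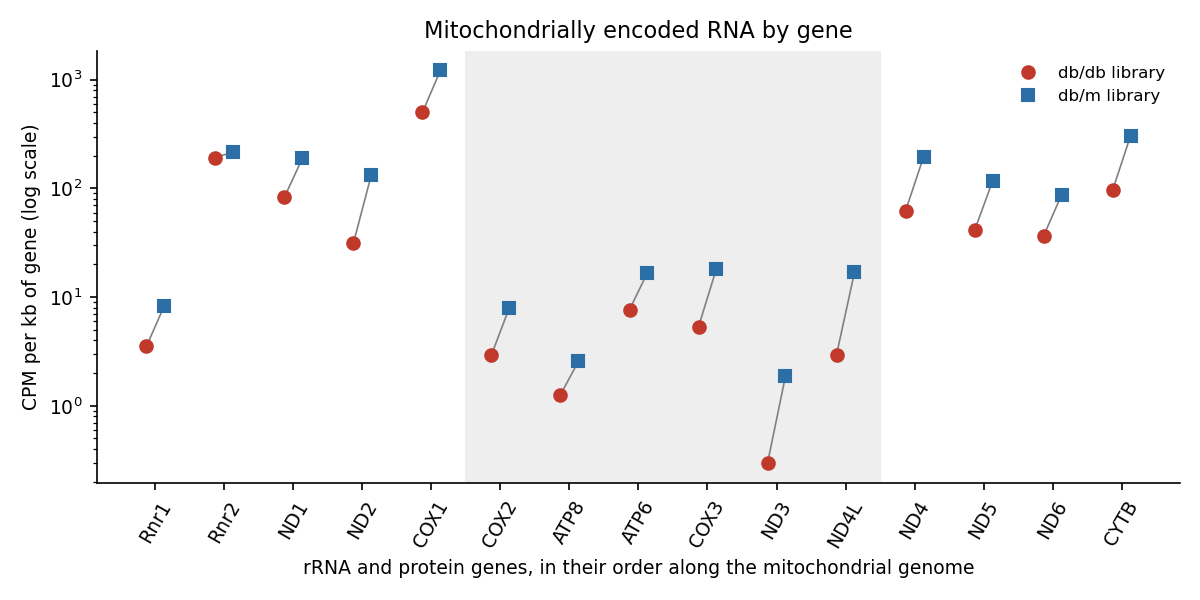
CPM per kilobase of gene on a log axis for the 2 ribosomal RNA genes and 13 protein genes of the mitochondrial genome, in genome order, with the db/db library as red circles and the db/m library as blue squares. The grey band marks COX2 to ND4L, where both libraries are low. Rnr2 is the gene with the smallest gap between the libraries, at 192 CPM per kb in db/db islets and 217 CPM per kb in db/m islets.

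The RNAs of the mitochondrial genome that are not translated, added to the comparison after their values were seen, went in unlike ways. Rnr2, the 16S RNA of the large ribosomal subunit, had 5899 counts in db/db islets against 5246 in db/m islets, a ratio of 0.889 (0.856 to 0.923). Set against Rnr2 within each library, the 13 protein genes stood at 3.90 in db/db islets and 9.09 in db/m islets, a ratio of 0.429 (0.412 to 0.447). Rnr1, the 12S RNA of the small subunit, had 65 counts in db/db islets against 122 in db/m islets, a ratio of 0.421 (0.307 to 0.574), which is near that of the messenger RNAs. Ribosomal RNA was removed before sequencing, per the labels' protocols, and whether that step reached these mitochondrial RNAs to the same extent in both libraries was not tested. Of the 22 mitochondrial tRNA genes, 11 had a count in either library, and 10 of these had more counts in db/m islets. They summed to 19 counts in db/db islets and 216 in db/m islets, a ratio of 0.0695 (0.0411 to 0.111). TrnL1, which lies between Rnr2 and ND1, had 6 counts in db/db islets and 110 in db/m islets (ratio 0.0431, 0.0155 to 0.0969). TrnM, which lies just before ND2, had 0 counts in db/db islets and 28 in db/m islets. With a floor of 3 counts in db/db islets, the TrnM level there was 11.8-fold below that in db/m islets, and the upper end of its interval was a ratio of 0.111. Of the 22 tRNA genes, only TrnL1 reached 1 CPM, so TrnM was not open to a call. Reads on a tRNA gene can come from mature tRNA or from uncut precursor, and these data do not separate them.

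Set against each other within a library, the contrast between the genomes does not depend on the scaling of the libraries. The 13 mitochondrially encoded genes had 0.982 counts for each count of the 80 nuclear respiratory chain subunits in db/db islets, against 2.59 in db/m islets, a ratio of 0.379 (0.370 to 0.389). For complex I the mitochondrial to nuclear value was 0.883 in db/db islets and 2.54 in db/m islets (ratio 0.348, 0.332 to 0.365). For complex III it was 0.651 in db/db islets and 2.07 in db/m islets (ratio 0.314, 0.292 to 0.338). For complex IV it was 4.25 in db/db islets and 10.1 in db/m islets (ratio 0.421, 0.399 to 0.444). For complex V, whose mitochondrial genes lie in the sparsely counted stretch, it was 0.0126 in db/db islets and 0.0282 in db/m islets (ratio 0.447, 0.348 to 0.573). In each of the 4 complexes built from both genomes, the mitochondrial share was thus lower in db/db islets. The nuclear subunits of these 4 complexes had ratios of summed counts from 0.974 (0.928 to 1.02) in complex IV to 1.02 (0.991 to 1.06) in complex V. Of 70 nuclear subunits with at least 1 CPM, 1 was called higher (all genes: 3.83%), 0 lower (4.04%) and 69 neither, with a median log2 ratio of -0.02. The 1 higher gene was Ndufb6, an accessory subunit of complex I, with 106 counts in db/db islets and 39 in db/m islets (ratio 2.15, 1.48 to 3.19), named after its value was seen. Of the 70 intervals, 16 lay above 1 (all genes: 20.7%) and 17 below 1 (18.2%). At 5 CPM or more, the subunits farthest from 1 were Ndufa7 at 0.644 (0.519 to 0.799), Cox6c at 0.653 (0.552 to 0.772) and Atp5g1 at 1.52 (1.29 to 1.81). Against the mitochondrial ribosomal protein genes, the 13 genes stood at 2.71 in db/db islets and 7.52 in db/m islets, a ratio of 0.361 (0.348 to 0.374).

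**Figure D4:**
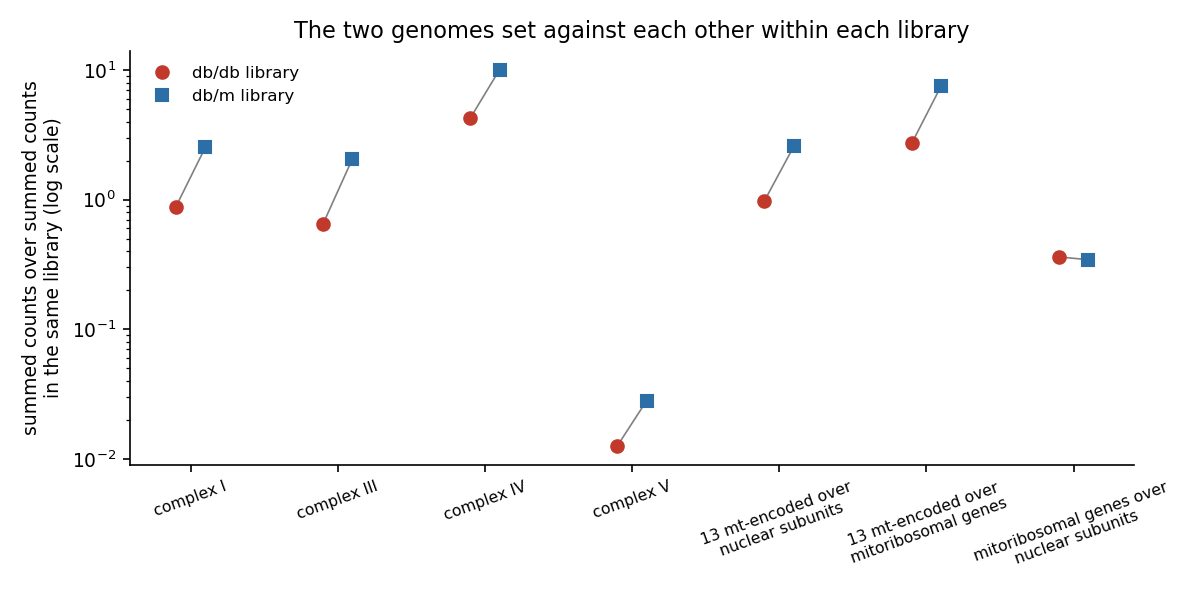
Summed counts of the first named gene set over those of the second in the same library, on a log axis, with the db/db library as red circles and the db/m library as blue squares. The points labelled by complex set mitochondrially encoded over nuclear subunits of that complex. In the 6 comparisons with mitochondrially encoded genes on top the db/db point is the lower one, while mitoribosomal genes over nuclear subunits stand at 0.362 in db/db islets and 0.344 in db/m islets.

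Of the 9 nuclear genes that maintain and express the mitochondrial genome, 8 reached 1 CPM and 0 of these were called (all genes: 7.87%), a count too small to set apart from that share. Their ratios lay between 0.675 and 1.18, above all 13 ratios of the mitochondrial transcripts. Tfam, which packs mitochondrial DNA and starts its transcription, had 72 counts in db/db islets against 83 in db/m islets, a ratio of 0.686 (0.493 to 0.952). Tfb2m, the initiation factor that opens the promoter with the polymerase, had 145 counts in db/db islets against 150 in db/m islets, a ratio of 0.764 (0.604 to 0.966). Polrmt, the mitochondrial RNA polymerase, had 153 counts in db/db islets against 114 in db/m islets, a ratio of 1.06 (0.827 to 1.36). The polymerase interval includes 1, and those of Tfam (0.557 to 1.07) and Tfb2m (0.682 to 1.09) do so too when libraries are scaled by total counts. Tfb1m, which methylates the 12S ribosomal RNA, had 41 counts in db/db islets against 48 in db/m islets (ratio 0.675, 0.434 to 1.05). Polg, the catalytic subunit of the mitochondrial DNA polymerase, had 390 counts in db/db islets against 386 in db/m islets (ratio 0.799, 0.692 to 0.922). Twnk, the replicative helicase, had 134 counts in db/db islets against 124 in db/m islets (ratio 0.854, 0.664 to 1.10). Lrpprc, which binds mitochondrial messenger RNAs and protects them, had 453 counts in db/db islets against 304 in db/m islets, a ratio of 1.18 (1.02 to 1.37). Its partner Slirp had 27 counts in db/db islets against 24 in db/m islets (ratio 0.889, 0.494 to 1.61). Mterf1a, a factor that binds the mitochondrial genome downstream of its ribosomal RNA genes, had 8 counts in each library and fell short of 1 CPM. The 8 genes with at least 1 CPM had a median log2 ratio of -0.28, which was -0.10 with total counts and -0.044 over the 2 members with at least 10 CPM, Lrpprc at 0.24 and Polg at -0.32. Of these 8, 3 had an interval below 1, which with total counts includes 1 for each, and 1 an interval above 1, against 18.2% and 20.7% of all compared genes.

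Genes for the mitochondrial ribosome were counted at similar levels in both libraries. Of the 76 genes, 47 carry large subunit names and 29 small subunit names, and 73 reached 1 CPM. The others were Mrpl23 with 8 counts in db/db islets and 9 in db/m islets, Mrps36 with 5 and 6, and Mrpl15, which was listed at 0 in both. The subunits were split by name alone, although Mrps18a and Mrps30 are placed in the large subunit of the assembled ribosome and Mrps36 is now known as a part of a citric acid cycle enzyme. Of the 73 genes, 1 was called higher (all genes: 3.83%), 0 lower (4.04%) and 72 neither. Their median log2 ratio was 0.02, as over all compared genes, and their lower and upper quartiles were -0.15 and 0.33, against -0.26 and 0.29 over all compared genes. A ratio above 1 was found for 42 of them and a ratio below 1 for 31, where 52.4% of all compared genes lay above 1. The interval lay above 1 for 12 genes (all genes: 20.7%) and below 1 for 1 gene (18.2%), and 59 of the 73 intervals held the ratio of the summed counts. These genes had 27 to 376 counts in db/db islets and 20 to 277 in db/m islets. Intervals on so few counts are wide, so these numbers say little about how alike the genes were. Under scaling by total counts, which raises every log2 ratio by 0.18, 57 of the 73 genes were above 1, beside 68.5% of all compared genes.

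The gene called higher was Mrpl45, a large subunit protein at the mouth of the tunnel through which new chains leave. It had 94 counts in db/db islets and 36 in db/m islets, a ratio of 2.06 (1.39 to 3.12). Mrps33 of the small subunit, with 59 counts in db/db islets and 24 in db/m islets, was just inside the 2-fold limit at 1.94 (1.19 to 3.27). With a limit of 1.5-fold and an interval excluding 1, 6 of the 73 genes were higher (all genes: 8.63%) and 0 lower (8.87%). Besides Mrpl45 and Mrps33, these were Mrpl41, Mrpl13, Mrpl4 and Mrpl55. Mrps33, Mrpl41 and Mrpl55 were named after their values were seen. Mrpl13 had 167 counts in db/db islets against 80 in db/m islets (ratio 1.65, 1.26 to 2.18). Mrpl4 had 130 counts in db/db islets against 65 in db/m islets (ratio 1.58, 1.16 to 2.16). Both are large subunit proteins with bacterial counterparts. Mrpl12, a protein of the stalk that recruits translation factors, had the most counts of the ribosomal genes in db/db islets, 376 against 213 in db/m islets, and a ratio of 1.40 (1.18 to 1.66). Mrpl3 had 113 counts in db/db islets against 65 in db/m islets, a ratio of 1.37 (1.004 to 1.89). Other much counted large subunit genes were nearer to 1. Mrpl17 had 344 counts in db/db islets against 277 in db/m islets (ratio 0.982, 0.835 to 1.15). Mrpl30 had 335 counts in db/db islets against 241 in db/m islets (ratio 1.10, 0.928 to 1.30).

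**Figure D5:**
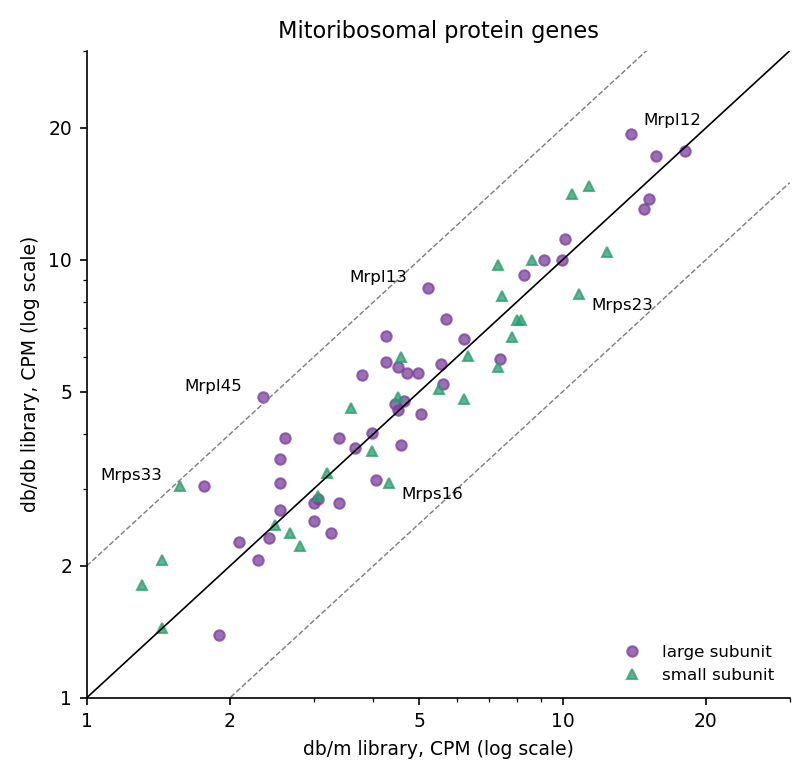
CPM in db/db islets (vertical) against CPM in db/m islets (horizontal) on log axes for the 73 mitoribosomal protein genes whose mean reached 1 CPM, with circles for 45 large subunit genes and triangles for 28 small subunit genes. The solid line marks equal CPM and the dashed lines 2-fold. Mrpl45 alone lies beyond a dashed line.

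In the small subunit, Mrps7 had 274 counts in db/db islets against 160 in db/m islets (ratio 1.35, 1.11 to 1.66). Mrps17 had 285 counts in db/db islets against 174 in db/m islets (ratio 1.29, 1.07 to 1.57). Mrps18b had 188 counts in db/db islets against 112 in db/m islets (ratio 1.33, 1.04 to 1.69). These 3 small subunit proteins have bacterial counterparts, and their intervals lay above 1. At the other end, Mrps23 had 162 counts in db/db islets against 166 in db/m islets, and its ratio of 0.771 (0.617 to 0.964) was the 1 whose interval lay below 1; with total counts it includes 1 (0.697 to 1.09). Mrps2 (ratio 0.840, 0.686 to 1.03), Mrps14 (0.774, 0.575 to 1.04), Mrps21 (0.776, 0.591 to 1.02), Mrps26 (0.850, 0.657 to 1.10) and Mrpl51 of the large subunit (0.804, 0.615 to 1.05) had intervals that include 1. The summed ratio was 1.08 (1.04 to 1.13) over large subunit names and 1.02 (0.967 to 1.08) over small subunit names. Set against each other within a library, large over small stood at 1.70 in db/db islets and 1.60 in db/m islets, a ratio of 1.06 (0.991 to 1.13), so no difference between the subunits was detectable at this depth. Of 5 further ribosomal protein genes whose names differ from this pattern, 0 were called (all genes: 7.87%), a count too small to set apart from that share. Among them were Dap3 (ratio 1.35, 1.07 to 1.71) and Ptcd3 (1.14, 0.934 to 1.40), and the summed ratio of the 5 genes was 1.16 (1.05 to 1.28). RefSeq spans of 24 of the 76 genes overlap another gene, among them Mrps7 with Gga3 and Mif4gd and Mrps23 with Cuedc1, and Mrpl43 overlaps Twnk. Without strand information, reads shared with such neighbours cannot be assigned with certainty.

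RefSeq's promoter table for GRCm38.p6 held 73 windows for 67 of the 76 ribosomal protein genes and 10 windows for the 9 maintenance genes. Each window covers 250 bases before and 50 bases after an annotated start, which need not be the outermost base of the gene's span, and windows were searched on both strands for 7 motifs, overlaps between motifs allowed. Nuclear respiratory factor 1 (NRF1) and the ETS factor GABP are the factors best known for driving nuclear genes of mitochondria. The NRF1 motif, GCGCA and GCGC with any 1 base between them, was in 12 of the 73 ribosomal windows (16.4%), against 4.60% of all 32851 windows. The ETS motif CCGGAAG was in 24 (32.9%), against 8.86% of all windows, and in 36.4% of 66 windows of cytosolic ribosomal protein genes. The YY1 motif AAGATGGCG was in 8 (11.0%), against 1.40%. The other motifs searched were TCAAGGTCA of oestrogen related receptors (0 windows, 0.423% of all), TGACGTCA of cyclic AMP responsive genes (2.74%, 1.79% of all), the E-box CACGTG (9.59%, 7.15% of all) and TATAAA (6.85%, 13.6% of all). Among ribosomal genes with at least 1 CPM, the median log2 ratio was -0.01 for the 12 with an NRF1 match and 0.02 for the 53 without, and -0.07 for the 24 with an ETS match and 0.02 for the 41 without. The NRF1 and YY1 matches were not particular to the mitochondrial ribosome. Among 70 windows of nuclear respiratory chain subunits, NRF1 was in 25.7%, ETS in 22.9% and YY1 in 10%. In the windows of cytosolic ribosomal protein genes, NRF1 and YY1 were each in 7.58%. Of the 10 maintenance windows, 6 held an ETS match, 1 an NRF1 match and 1 a YY1 match. A match is a run of letters and not a measured binding site.

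Stretches that end just before the start used by the table and lie outside the gene's RefSeq span are printed for Mrpl12 and Mrpl17, the most counted ribosomal genes, and for Slirp of the mRNA stability group, the examples that carry each of these 3 motifs. Capitals mark matches to the NRF1, ETS or YY1 motif, in either orientation. They lie at chr11:120484527-120484636 (plus strand) for Mrpl12, chr7:105811088-105811197 (minus) for Mrpl17 and chr12:87443786-87443895 (plus) for Slirp. Mrpl12 and Mrpl17 hold 1 NRF1 match each, and Slirp holds 2 ETS matches and 1 YY1 match.
Mrpl12: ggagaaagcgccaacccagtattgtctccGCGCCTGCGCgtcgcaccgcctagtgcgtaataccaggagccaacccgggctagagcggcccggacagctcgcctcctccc
Mrpl17: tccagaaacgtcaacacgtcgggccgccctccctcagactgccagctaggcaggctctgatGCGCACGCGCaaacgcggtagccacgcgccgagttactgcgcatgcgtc
Slirp: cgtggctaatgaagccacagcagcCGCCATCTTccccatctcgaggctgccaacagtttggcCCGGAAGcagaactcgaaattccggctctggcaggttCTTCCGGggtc
In the comparison of the libraries, Mrpl12 was at 1.40 (1.18 to 1.66) and Mrpl17, which also holds an NRF1 match, at 0.982 (0.835 to 1.15).

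Other nuclear genes that handle mitochondrial RNA and DNA were compared in lists of 10 to 21 genes, so small that the share of all genes called (3.83% higher, 4.04% lower) comes to about 1 gene or fewer per list and direction, and no count below stands apart from it. Of 19 genes for RNA processing and decay, 1 was called higher, 0 lower and 18 neither, with a median log2 ratio of 0.15 against 0.02 over all compared genes. The higher gene was Fastkd5, which is needed to cut precursor RNA at junctions that no tRNA marks, with 135 counts in db/db islets and 51 in db/m islets (ratio 2.09, 1.51 to 2.95). Its span overlaps Ubox5. The related genes Fastk (645 counts in db/db islets against 289 in db/m islets, ratio 1.76, 1.53 to 2.03) and Tbrg4 (211 against 101, ratio 1.65, 1.30 to 2.11) stayed inside the 2-fold limit. Of 21 ribosome assembly genes with at least 1 CPM, 0 were higher, 1 lower and 20 neither, with a median of 0.11. The lower gene, named after its value was seen, was Ftsj2, a methyltransferase of the 16S ribosomal RNA, with 14 counts in db/db islets against 27 in db/m islets (ratio 0.410, 0.199 to 0.809). Of the 21 intervals, 4 lay above 1 (all genes: 20.7%) and 1 below 1 (18.2%). At 5 CPM or more, the assembly genes farthest from 1 were Mpv17l2 at 1.40 (1.12 to 1.75), Mettl17 at 1.37 (1.05 to 1.81) and C1qbp at 1.27 (1.05 to 1.53). None of 14 translation factor genes (median 0.10) and none of 14 genes for mitochondrial aminoacyl-tRNA synthetases (median 0.04) was called in either direction. Tufm, the elongation factor that brings charged tRNA to the ribosome, had 152 counts in db/db islets against 143 in db/m islets (ratio 0.840, 0.664 to 1.06). Cars2, which charges mitochondrial tRNA with cysteine, had 125 counts in db/db islets against 68 in db/m islets (ratio 1.45, 1.07 to 1.98). Of 10 genes for mitochondrial DNA replication and packaging with at least 1 CPM, 0 were higher, 1 lower and 9 neither, with a median of 0.09. The lower gene was Polg2, the accessory subunit of the polymerase Polg, with 25 counts in db/db islets against 119 in db/m islets, a ratio of 0.166 (0.103 to 0.257). Polg, named above, was at 0.799, so the genes for the subunits of 1 enzyme differed between the libraries by unlike amounts. Polg2 was named after its value was seen, and its RefSeq span overlaps Milr1, which had 0 counts in both libraries.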

How the data were processed

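Per the labels' protocols, collagenase digestion and a density gradient gave the islets, and total RNA was depleted of ribosomal RNA. Reads were aligned with HISAT2 2.0.4 to mm10 or GRCm38, per the submitters' processing notes; the counting program, annotation, use of strand and treatment of reads with several matches are not stated in these sources. Unnormalized read counts for each gene, as deposited by the authors, formed 1 column per library. Groups came from the library titles, and 1 library per group was analysed here.

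Counts were scaled with edgeR 4.0.16 (TMM, R 4.3.3). Ratios have exact 95% Clopper-Pearson counting intervals from the db/db share of both counts (Python 3.11.15, scipy 1.17.1). Ratios of sums within a library have exact conditional odds ratio intervals (R). Intervals cover counting error only. They treat every count as independent, which copies made by PCR are not, so they can be too narrow. A zero count against more than 3 counts was set to a floor of 3 for log2 ratios. Calls needed a mean of 1 unscaled CPM, a 2-fold ratio and an interval excluding 1. The interval and calling code was tested on simulated data.

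The members and gene lists were chosen with earlier results of these data known. Named were all 13 mitochondrially encoded and 9 maintenance genes, the 6 highest and 6 lowest ribosomal genes by ratio with at least 5 CPM, the 3 most counted per subunit, members that were called, and up to 3 genes of each other list, at 5 CPM or more, whose log2 ratio lay farthest from 0. Positions and promoters come from RefSeq GRCm38.p6, matched by symbol for all 98 genes. As alternatives, libraries were scaled to their totals, to totals leaving out acinar genes or with DESeq2 1.42.0 size factors, with no filter or 10 CPM, fold limits of 1.5 and 4, and other choices of summed genes.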

Additional observations from a re-analysis of the deposited data

How the results depend on the processing

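The direction of the summed mitochondrial ratio held under the 3 other scalings and the 4 other choices of genes run. The main value of 0.382 was 0.431 with total counts, 0.403 with total counts without acinar genes, 0.336 without COX1 and 0.337 over COX2 to ND4L only; leaving out COX2 to ND4L gave 0.382 (both COX2 to ND4L choices were added after the data were seen). The mitochondrial median log2 ratio was -1.32 with total counts and -1.42 without acinar genes. The mitoribosome summed ratio was 1.19 and 1.12, its median log2 ratio 0.20 and 0.10, and its genes called 2 and 2, under these same scalings; 6 were called at 1.5-fold, and 0 at 4-fold or at 10 CPM. The median of the maintenance genes was -0.10 with total counts and -0.044 at 10 CPM. Within libraries, mitochondrially encoded over nuclear subunits was 0.334 without COX1 and 0.335 over COX2 to ND4L, and over mitoribosomal genes 0.318 and 0.319. Genes called in all were 811, and 1559 with no filter, 131 at 10 CPM, 1803 at 1.5-fold and 154 at 4-fold. With total counts 67.1% of calls were higher, against 48.7% with TMM. The cause of the remaining differences was not tested. Of 68 single genes, 7 moved beyond their interval with total counts, 2 without acinar genes and 0 with DESeq2, and the ratio crossed 1 for Mrpl17 (1.11 with total counts, 1.04 without acinar genes) and Slirp (1.004 with total counts), whose intervals include 1. The intervals of Tfam, Tfb2m and Mrps23 lay below 1 with TMM and DESeq2 and include 1 with total counts, with or without acinar genes. The sum over genes little shared with nuclear copies was not run, since it needs a genome. No paired analysis was possible because each group has 1 library. ND3 and ATP8 are limited by depth.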

Other observations

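Nuclear genes for mitochondrial import, protein folding and metabolism had a median log2 ratio of 0.17 over 18 genes. Of these, 1 was called higher (all genes: 3.83%), 2 lower (4.04%) and 15 neither, counts too small to set apart from these shares. Lonp1, the protease of the mitochondrial matrix, had 818 counts in db/db islets against 261 in db/m islets, a ratio of 2.48 (2.15 to 2.86). The lower genes were the neighbouring Hspd1 and Hspe1, whose products form the chaperonin of the matrix and whose spans overlap. Hspd1 had 689 counts in db/db islets against 2190 in db/m islets (ratio 0.249, 0.228 to 0.271), and Hspe1 had 323 against 918 (ratio 0.278, 0.244 to 0.316).

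Of 9 regulators of mitochondrial gene expression with at least 1 CPM, 1 was called higher (all genes: 3.83%), 0 lower (4.04%) and 8 neither. Counts this small cannot be set apart from these shares, and the median log2 ratio of the list was -0.01. The coactivator gene Ppargc1a had 217 counts in db/db islets against 81 in db/m islets (ratio 2.12, 1.63 to 2.77), and the related Pprc1 had 876 against 385 (ratio 1.80, 1.59 to 2.03). Ppargc1b, the other member of that family, had 167 against 182 counts (ratio 0.725, 0.584 to 0.900).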
